A study of Mus musculus with 6 samples.

Results

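The microRNA genes described here belong to the imprinted Dlk1-Dio3 locus of mouse chromosome 12, which holds one of the largest groups of microRNA genes in mammals. A list of 42 of them was selected on the measured value of 1 member, Mir154. Its mean signal was lower in the hippocampus of knockout mice for the aryl hydrocarbon receptor gene Ahr (Ahr-KO). A gene was measured if the platform annotation paired a probe set with it alone. This held for 32 of the 42 among 22180 genes tested, 31 under the listed symbol and 1, Mir299, under its present symbol Mir299a. The other 10 (Mir127, Mir134, Mir136, Mir369, Mir410, Mir412, Mir431, Mir433, Mir434 and Mir485) were present only on 7 probe sets that they shared with each other or with Rtl1, Mirg or other genes, and no value is given for them by name.

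Total RNA came from dissected hippocampi of 3 Ahr-KO and 3 wild-type mice, with 1 whole-transcript array per mouse. The labels give no age, sex, strain or type of Ahr deletion. Values are log2 signals, and every difference is Ahr-KO minus wild type with the standard error (SE) of the limma fit across all genes. Ahr itself averaged 6.76 ± 0.15 (SD, n = 3) on the Ahr-KO arrays and 7.54 ± 0.12 (SD, n = 3) on the wild-type arrays, and it also lies on chromosome 12. The Ahr probe set was above the array median on every array, Ahr-KO included. The source of this remaining signal was not tested.

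As background, most RNAs of this locus other than the protein-coding genes come from the maternal chromosome. They include the long noncoding RNAs Meg3, Rian and Mirg, a string of small nucleolar RNAs and the microRNAs, which are thought to be cut out of long shared transcripts. Drosha and Dgcr8 release a hairpin from such a transcript, Dicer1 cuts the hairpin to a duplex, and one strand guides an Argonaute protein to messenger RNAs that match its seed, the bases near its 5′ end. In neurons the group that runs from Mir379 to Mir410 is transcribed with activity through Mef2 factors, and its member miR-134 restrains dendritic spines by repressing Limk1. A whole-transcript probe set over such a gene detects RNA of the hairpin region, so that primary transcript, hairpin and mature microRNA were not told apart. Nor can fewer cells with a transcript be told apart from less of it per cell in tissue RNA.

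All 42 genes had mature sequences in RefSeq (GRCm38.p6), 80 in total, and all 40 hairpins found there lay on the plus strand. The sequences below belong to the genes with the 5 lowest unadjusted p-values in the genotype comparison, each written 5′ to 3′ with its seed, bases 2 to 8, in capitals.
miR-154-5p: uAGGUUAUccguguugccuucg
miR-154-3p: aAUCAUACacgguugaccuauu
miR-341-5p: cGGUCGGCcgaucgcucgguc
miR-341-3p: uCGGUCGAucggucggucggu
miR-379-5p: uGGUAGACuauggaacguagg
miR-379-3p: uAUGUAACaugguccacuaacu
miR-300-5p: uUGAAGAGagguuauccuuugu
miR-300-3p: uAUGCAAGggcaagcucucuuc
miR-665-5p: aGGGGCCUcugccucuauccaggauu
miR-665-3p: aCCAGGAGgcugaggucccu
These genes do not share a seed with one another. The 80 mature sequences of the list had 77 different seeds, and 3 of these seeds occurred in more than 1 listed gene. For Mir376c, Mir487b, Mir539 and Mir485 only 1 mature sequence was held, so further shared seeds could be missed. Outside the list, miR-1193-5p has the seed of miR-379-5p, and its gene Mir1193 also lies between Meg3 and Dio3.

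The 3 shared seeds are shown because they tie genes whose mature products can match the same sites. The first joins Mir379 and Mir411, the second Mir376c and Mir376b, and the third Mir494 and Mir410.
miR-379-3p: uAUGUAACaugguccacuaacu
miR-411-3p: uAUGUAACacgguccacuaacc
miR-376c-5p: gUGGAUAUuccuucuauguuua
miR-376b-5p: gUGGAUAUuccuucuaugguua
miR-494-5p: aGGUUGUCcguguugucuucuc
miR-410-5p: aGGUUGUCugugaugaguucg
Mir379 and Mir411 differed between genotypes by -0.38 ± 0.12 and -0.24 ± 0.14 (SE). Mir376b and Mir376c differed by -0.36 ± 0.25 and -0.02 ± 0.09, and Mir494 by 0.12 ± 0.17. The probe sets of Mir379, Mir411, Mir376c and Mir494 were dim, below the array median on all arrays. The differences within these pairs were not compared by a test.

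Mir154 is the gene that chose the list, so its values are a description. It lies inside Mirg, towards the end of the group. It read 5.43, 5.26 and 5.05 on Ahr-KO arrays 1 to 3 and 6.15, 5.77 and 5.93 on wild-type arrays 1 to 3. All 3 Ahr-KO arrays were below all 3 wild-type arrays. The means were 5.25 ± 0.19 and 5.95 ± 0.19 (SD, n = 3 each), a difference of -0.70 ± 0.13 (SE) or 1.63-fold lower. Across all genes it did not pass an adjusted p under 0.05 (limma, adjusted p = 0.769), nor did any of the 22180 genes (0%). Among its alternatives the adjusted p ran from 0.539 to 0.973.

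The genes on either side of Mir154 in RefSeq order are not on the list. Mir453, before it, read 9.56, 9.02 and 9.43 in Ahr-KO and 9.36, 9.20 and 9.64 in wild type, a difference of -0.06 ± 0.16 (SE). Mir496a, after it, read 6.90, 6.57 and 6.67 against 7.15, 6.74 and 6.59, a difference of -0.11 ± 0.15. The genotypes overlapped in both neighbours. The next listed gene, Mir377, read 5.45, 5.07 and 5.33 against 5.93, 5.28 and 5.57, and it differed by -0.31 ± 0.16 with overlap.

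The hairpin of Mir154 was compared with the other listed hairpins by global alignment. The closest was Mir495, with 69.1% identical positions and a difference of -0.10 ± 0.18 (SE). Mir382 followed with 68.4% and a difference of -0.26 ± 0.12, then Mir377 with 64.7%. Mir494, at 63.5%, differed by 0.12 ± 0.17.

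**Figure D1:**
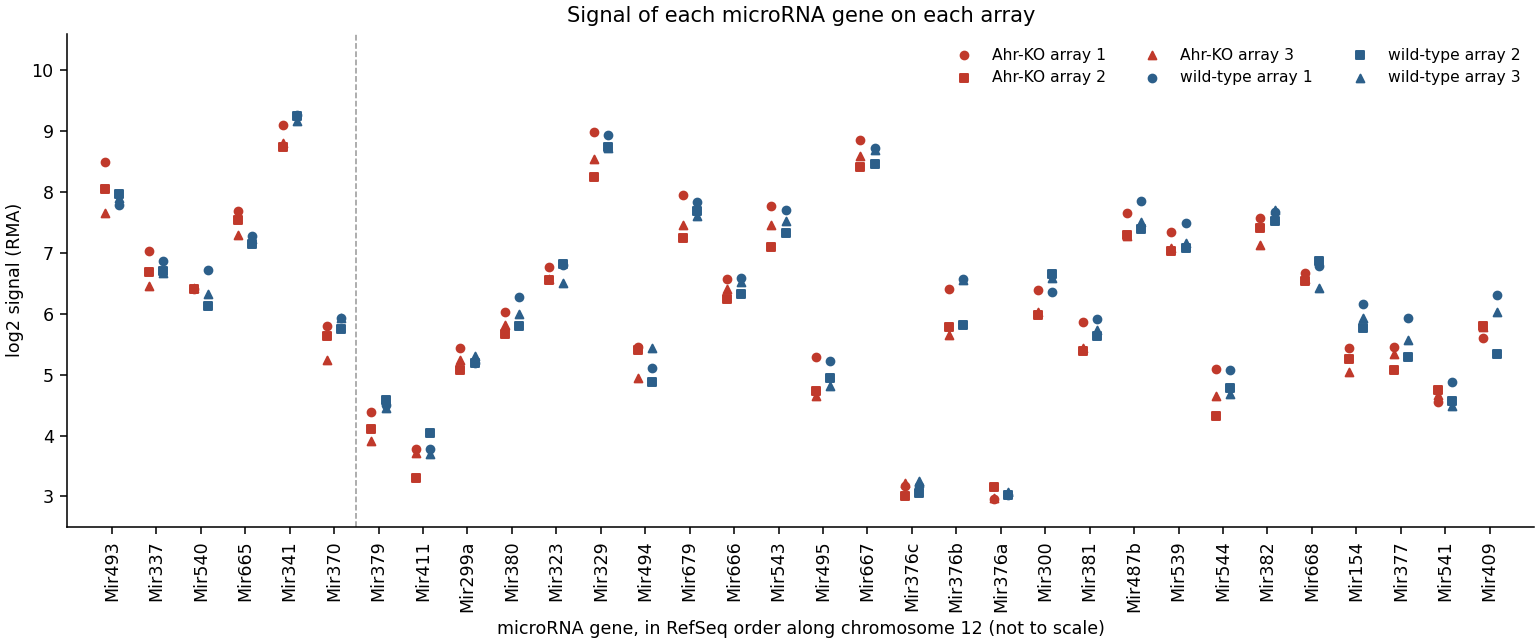
Log2 signal (vertical axis) of the 32 microRNA genes with a probe set of their own, in RefSeq order along the horizontal axis, with 1 point per array, red for Ahr-KO and blue for wild type. The dashed line separates the 6 genes before Mir379 from the 26 from Mir379 onwards. The circles, which mark array 1 of each genotype, are often the highest point of their colour.

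Among the 32 genes 26 had a lower mean in Ahr-KO and 6 a higher one. The median difference was -0.13 log2, against 0.0019 over all genes tested. With an unadjusted p under 0.05 there were 4 genes lower in Ahr-KO, where 2.65% of all genes were, and 1 gene higher, where 3.53% were. The genotypes did not overlap in 3 genes lower in Ahr-KO, against 5.75% of all genes, and in 1 higher, against 6.18%. Without Mir154 the median was -0.10, 25 of 31 genes had a lower mean, 3 were lower with an unadjusted p under 0.05, and 2 were lower without overlap. Since the list was drawn up from this comparison, these counts are given without a reading. No listed gene passed over all genes (limma, adjusted p from 0.769 to 0.998).

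Mir379 opens the group that runs to Mir410. It read 4.39, 4.11 and 3.91 in Ahr-KO and 4.51, 4.58 and 4.45 in wild type, with no overlap and a difference of -0.38 ± 0.12 (SE). Its signal was below the array median on all 6 arrays, so it was dim in both genotypes. Mir300 read 6.39, 5.98 and 6.03 against 6.35, 6.65 and 6.59, a difference of -0.39 ± 0.13. Here Ahr-KO array 1 was slightly above wild-type array 1, and the other arrays were apart.

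Mir341 lies upstream, within Rian. It read 9.10, 8.74 and 8.80 in Ahr-KO and 9.27, 9.24 and 9.16 in wild type, with no overlap and a difference of -0.34 ± 0.10 (SE). The wild-type arrays were within a narrow range, while the Ahr-KO arrays were spread out, array 1 being nearest to the wild type. Mir376b, of a family whose precursors are known to be edited in brain, read 6.41, 5.79 and 5.65 against 6.57, 5.81 and 6.55. It differed by -0.36 ± 0.25 and had the largest within-genotype spread of the 32 genes, with an SD of 0.42. Its difference was -0.61 without wild-type array 2, -0.59 without Ahr-KO array 1, -0.84 without both, -0.23 without wild-type array 1 and -0.21 without Ahr-KO array 3.

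Of the 6 genes with a higher mean in Ahr-KO, 3 lie before Mir379 (Mir493, Mir540 and Mir665) and 3 after it (Mir299a, Mir494 and Mir541). Mir665 read 7.69, 7.54 and 7.29 in Ahr-KO and 7.28, 7.14 and 7.23 in wild type, with no overlap by a narrow margin and a difference of 0.29 ± 0.11 (SE). Mir493, the first listed gene of the locus, read 8.49, 8.05 and 7.66 against 7.78, 7.97 and 7.91. Its difference of 0.18 ± 0.18 came with a spread in Ahr-KO (SD 0.41) far wider than in wild type (SD 0.10). Mir494 read 5.45, 5.40 and 4.94 against 5.11, 4.88 and 5.44, with full overlap. Mir540 and Mir299a differed by 0.02 ± 0.14 and 0.02 ± 0.10.

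The 27 genes with an unadjusted p of 0.05 or more differed by -0.36 to 0.18, 22 of them with a lower and 5 with a higher mean in Ahr-KO. Among the brighter probe sets Mir329 read 8.98, 8.24 and 8.54 against 8.93, 8.74 and 8.72, a difference of -0.21 ± 0.17 (SE). Mir667 read 8.85, 8.40 and 8.59 against 8.72, 8.45 and 8.69, a difference of -0.01 ± 0.13. Mir679 read 7.96, 7.24 and 7.45 against 7.84, 7.69 and 7.61, a difference of -0.16 ± 0.17. In all 3 genes array 1 was the highest of its genotype. Mir544, among the 3 genes with the widest spread within genotypes, read 5.09, 4.32 and 4.65 against 5.08, 4.79 and 4.69, a difference of -0.16 ± 0.19.

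By position, the 26 measured genes from Mir379 onwards had a median difference of -0.16 and 23 of them a lower mean in Ahr-KO. The 6 genes before Mir379 had a median difference of 0.00027, with 3 lower and 3 higher. The difference between these stretches was not tested. A further 11 microRNA genes between Meg3 and Dio3 were measured but not listed. Their median difference was -0.14, and 9 had a lower mean in Ahr-KO. None had an unadjusted p under 0.05, where 2.65% of all genes were lower and 3.53% higher.

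**Figure D2:**
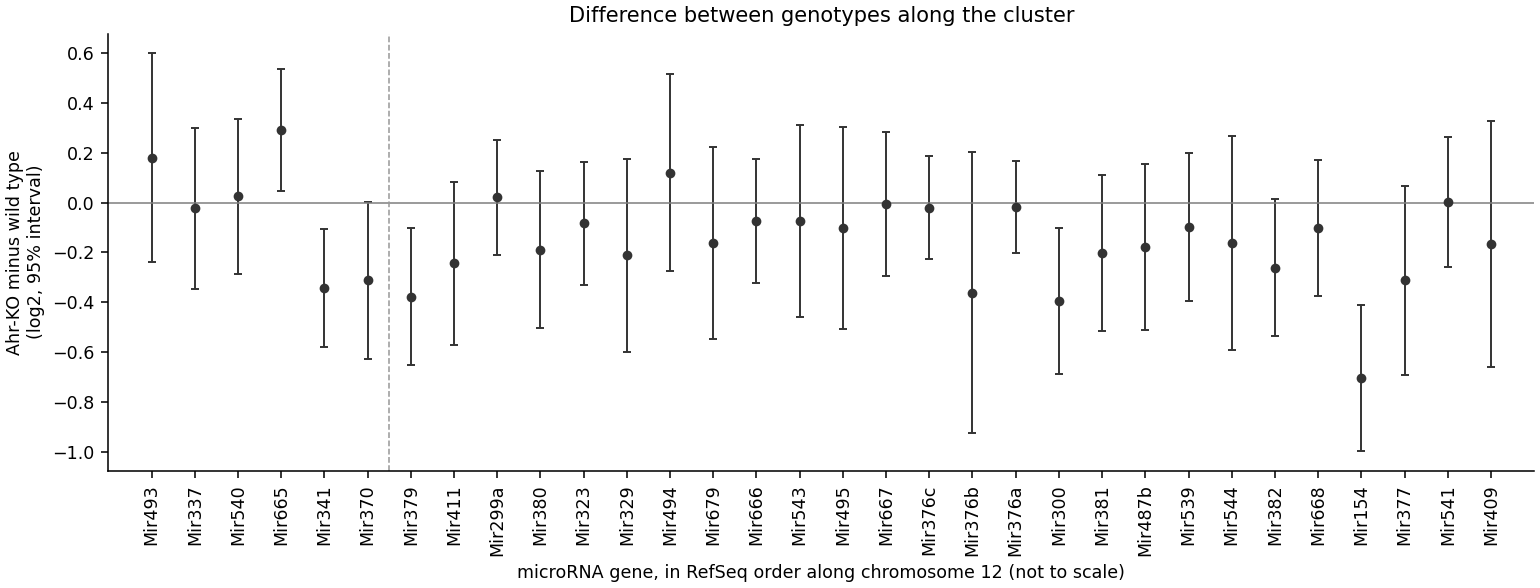
Difference between genotypes (Ahr-KO minus wild type, log2, vertical axis) for the 32 genes in RefSeq order, with points for limma estimates and bars for 95% intervals. Mir154 has the lowest value at -0.70, and 27 of the 32 intervals include 0.

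The 451 other microRNA genes on the array had a median difference of -0.0016, and 227 of them had a lower mean in Ahr-KO. The Sfmbt2 cluster is a large imprinted group on another chromosome. For 24 microRNA genes picked by the names of its families, with positions not checked, the median was -0.02. For a set of 14 brain microRNA genes (of the miR-9, miR-124, miR-128, miR-132, miR-137, miR-138 and miR-212 families) it was 0.02, with 7 lower and 7 higher. The differences of these 14 genes ran from -0.49 to 0.14, so that their mean (-0.07) had the opposite sign to their median. In this set 2 genes were lower with an unadjusted p under 0.05 (14.3%, against 2.65% of all genes), and 3 were lower without overlap (21.4%, against 5.75%). Whether the listed genes differ from these groups was not tested.

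**Figure D3:**
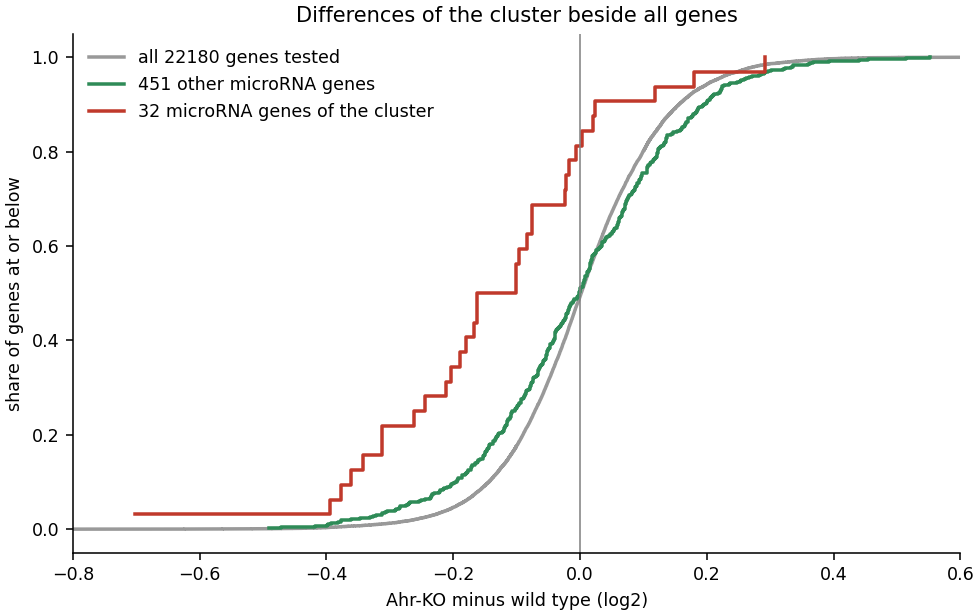
Share of genes (vertical axis) at or below each difference between genotypes (horizontal axis, log2) for the 32 listed microRNA genes (red), the 451 other microRNA genes (green) and all 22180 genes tested (grey). The red curve, which includes Mir154, has a median of -0.13 (-0.10 without Mir154), against -0.0016 and 0.0019.

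A feature that the choice of genes did not use is how the listed genes vary among mice of one genotype. They varied together. Ahr-KO array 1 had the highest value of the 3 Ahr-KO arrays in 27 of the 32 genes (84.4%), while it did so in 30.7% of all genes and in 47.5% of the other microRNA genes. Wild-type array 1 had the highest value of the 3 wild-type arrays in 21 of the 32 (65.6%), against 35.5% of all genes and 35.9% of the other microRNA genes. Both held in 18 genes. These shares are descriptions, since genes thought to share a transcript cannot be taken as independent of each other. Of the 6 small nucleolar RNA genes measured between Meg3 and Dio3, Ahr-KO array 1 was the highest Ahr-KO array in 3 and the lowest in 3. Wild-type array 1 was the highest wild-type array in 3 of them and the lowest in 2.

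The median of this deviation was larger in size than the median difference between genotypes. Ahr-KO array 1 exceeded the mean of Ahr-KO arrays 2 and 3 by a median of 0.30 log2 over the 32 genes, and by -0.014 over all genes. The excess reached 0.69 in Mir376b, 0.63 in Mir493, 0.61 in Mir679 and 0.61 in Mir544. Wild-type array 1 exceeded the mean of wild-type arrays 2 and 3 by a median of 0.18. The exceptions in Ahr-KO were Mir540, Mir376c, Mir376a, Mir541 and Mir409, of which Mir376c, Mir376a and Mir541 were below the array medians on all arrays.

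Averaged over the 32 genes as deviations from each gene's mean over the 6 arrays, the Ahr-KO arrays stood at 0.14, -0.18 and -0.17 and the wild-type arrays at 0.19, -0.03 and 0.05. Ahr-KO array 1 was thus above 2 of the wild-type arrays. The genotype means were -0.07 ± 0.18 and 0.07 ± 0.11 (SD, n = 3 each), so the difference of -0.14 was smaller than the spread among the Ahr-KO arrays. The 11 unlisted microRNA genes of the locus also had array 1 highest in each genotype, with 0.15, -0.16 and -0.14 in Ahr-KO and 0.17, -0.01 and 0.0026 in wild type. The 24 genes picked by the family names of the Sfmbt2 cluster also had array 1 highest in Ahr-KO, with 0.12, -0.13 and -0.03. In wild type they stood at -0.04, 0.02 and 0.06, with array 1 the lowest. The high values on Ahr-KO array 1 were thus not particular to this locus. The single-gene spread was wide as well. Its median within genotypes was 0.21 log2 for the listed genes, 0.16 for the other microRNA genes and 0.11 for all genes.

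Genes of the choroid plexus, a secretory epithelium of the brain ventricles, also marked out Ahr-KO array 1, together with wild-type array 2. The summed log2 level of 8 of 8 measured markers ranged from 48.8 to 63.6 in Ahr-KO and from 48.3 to 59.7 in wild type, each maximum being that of the array just named. The other 4 arrays did not exceed 49.3, and no marker was at 0. The listed microRNA genes were high on the first of these arrays but not on the second. Their part in the result was not tested.

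**Figure D4:**
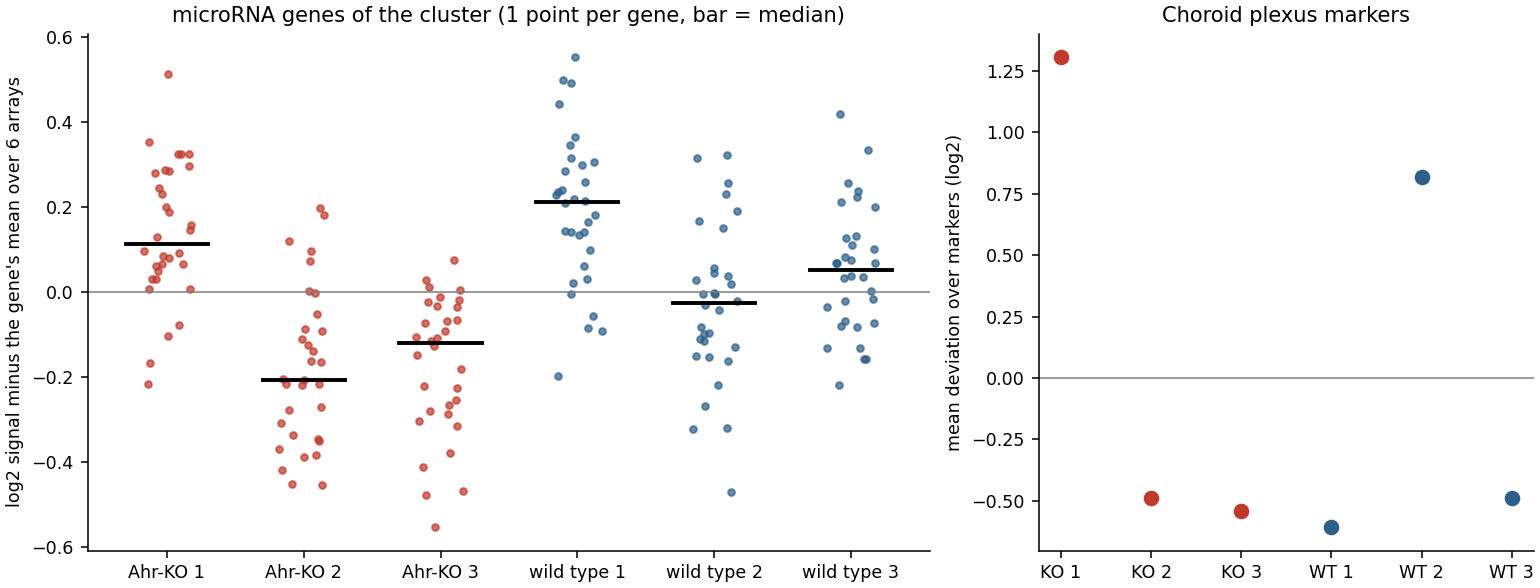
Left, log2 signal minus the gene's mean over 6 arrays (vertical axis) for the 32 microRNA genes on each array (horizontal axis), with 1 point per gene and a bar at the median. Right, the mean of the same deviation over 8 choroid plexus markers, which is highest on Ahr-KO array 1 and wild-type array 2.

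The counts depended on single arrays. Without Ahr-KO array 1 the median difference of the 32 genes was -0.26, and 12 genes were lower with an unadjusted p under 0.05, against 2.4% of all genes in that fit, and 0 higher, against 3.54%. In 15 genes the genotypes then did not overlap, against 21.9% of all genes. When Ahr-KO array 1 and wild-type array 2 were both left out, the median was -0.33, with 15 genes lower at that level, against 2.8% of all genes, and 0 higher, against 3.25%. In 21 genes the genotypes then did not overlap, against 34.6% of all genes. This pair was picked by its choroid plexus levels in these same data. Ahr-KO array 1 was the highest Ahr-KO array in 27 of the 32 genes, and wild-type array 2 the lowest wild-type array in 18. Leaving both out was therefore bound to make many differences more negative, and these counts are given without a reading. Without Ahr-KO array 2 or wild-type array 1 the median was only -0.04 in either case. Without wild-type array 2 it was -0.17, with 7 genes lower against 2.93% and 9 without overlap against 21.9%. Over the other 4 single arrays 3 to 5 genes were lower, against 3.64%, 2.12%, 2.55% and 2.19% of all genes without Ahr-KO array 2, Ahr-KO array 3, wild-type array 1 and wild-type array 3 in turn. In the same order the higher genes numbered 0, 2, 1 and 0, against 3.58%, 2.96%, 3.72% and 2.88%, and without wild-type array 2 there were 0, against 3.29%. Genes without overlap numbered 5, 5, 6 and 6, against 24.4%, 19.7%, 23.8% and 20.7%. With median centring, 7 genes did not overlap, against 11.2%. Among genes at or above the median level 2 were lower, against 4.06%, and 2 did not overlap, against 12.8%. Array weights left 0 genes higher, against 4.43%. With a block for the mouse number 5 were lower, against 2.11%. Mir154 itself differed by -0.60 to -0.89 in the fits that held it.

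The long transcripts of the locus were read by few probe sets of their own. Rian, the noncoding RNA that hosts Mir341 and Mir370, read 11.02, 10.68 and 10.90 in Ahr-KO and 10.96, 10.91 and 11.03 in wild type, a difference of -0.10 ± 0.10 (SE; limma, adjusted p = 0.890). Its values overlapped between genotypes, and array 1 was the highest in Ahr-KO but not in wild type. The probe set paired with Meg3 alone read 6.50, 6.31 and 6.44 against 6.51, 6.57 and 6.68, without overlap but by a very narrow margin, and differed by -0.17 ± 0.08 (adjusted p = 0.817). Mirg and Rtl1 had none of their own. Over the 7 probe sets that listed microRNA genes share with other genes the differences ran from -0.25 to 0.01.

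The protein-coding genes at the ends of the locus had higher means in Ahr-KO. Dlk1, a Notch-related protein expressed from the paternal chromosome, read 6.66, 6.57 and 6.74 in Ahr-KO and 6.12, 6.67 and 6.12 in wild type, a difference of 0.35 ± 0.15 (SE; limma, adjusted p = 0.806). Wild-type array 2 lay among the Ahr-KO arrays, and without it the difference was 0.53. Dio3, which inactivates thyroid hormone, differed by 0.20 ± 0.19, with 0.40 without wild-type array 2 and 0.04 without Ahr-KO array 3, and Dio3os by 0.01 ± 0.15. The flanking genes Begain and Wdr25 differed by 0.10 ± 0.14 and 0.06 ± 0.10. The 6 small nucleolar RNA genes measured between Meg3 and Dio3 had a median difference of 0.02, with 3 lower and 3 higher.

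Of 17 measured genes that make or use microRNAs none passed over all genes (limma), and 1 was higher with an unadjusted p under 0.05 (5.88%, against 3.53% of all genes). That gene was Khsrp, an RNA-binding protein that promotes the maturation of some microRNAs. It read 9.38, 9.45 and 9.38 in Ahr-KO and 9.23, 9.20 and 9.11 in wild type, with no overlap and a difference of 0.21 ± 0.07 (SE; adjusted p = 0.770). Lin28b, which blocks let-7 maturation, differed by -0.19 ± 0.11 and Tnrc6c, a silencing partner of Argonautes, by 0.13 ± 0.08. Drosha differed by -0.01 ± 0.07 and Dicer1 by -0.02 ± 0.07. Without overlap, 1 of the 17 genes was lower (Ago4, 5.88%, against 5.75% of all genes) and 1 higher (Khsrp, 5.88%, against 6.18%).

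Of the regulators and targets known from other work none passed over all genes either (limma). Among 7 genes that set or keep imprints, Zfp445 differed by -0.12 ± 0.08 (SE), the DNA methyltransferase Dnmt3a by -0.10 ± 0.07 and Dppa3 by 0.14 ± 0.12. Of the Mef2 factors, Mef2d differed by 0.21 ± 0.09, Mef2a by 0.07 ± 0.07 and Mef2c by -0.15 ± 0.31. Mef2c varied widely, with 9.88, 10.78 and 10.05 in Ahr-KO and 10.79, 9.73 and 10.63 in wild type. Among 5 measured target genes Limk1, a kinase of actin remodelling, differed by -0.15 ± 0.10, Dcx, a protein of young neurons, by -0.13 ± 0.10 and Pum2, a translational repressor, by -0.07 ± 0.08. In these lists 0 genes had an unadjusted p under 0.05 (limma), where 2.65% of all genes were lower and 3.53% higher. Dnmt3a, 1 of the 7 imprint genes (14.3%), was lower without overlap, against 5.75% of all genes. Mef2a, 1 of the 3 Mef2 factors (33.3%), was higher without overlap, against 6.18%.

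Probe brightness limits what the levels can say. Of the 32 genes 16 were above the array median on all 6 arrays, 9 were below it on all 6, and 7, Mir154 among them, were mixed. The array medians were 5.79 to 5.85. Odorant and vomeronasal receptor genes, thought to be little used in hippocampus, had a median level of 3.52, and Mir376a and Mir376c averaged 3.03 and 3.15. Over 30 genes with a RefSeq hairpin the level correlated with hairpin GC content (Pearson's r = 0.58, Spearman's rho = 0.56, a description over genes read on the same 6 arrays). A brighter probe set is not read here as more RNA. The difference between genotypes had r = 0.14 with GC content and 0.06 with level.

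Of the 32 genes 4 had a second probe set. The second sets of Mir380, Mir376a, Mir299a and Mir409 differed between genotypes by 0.03, 0.04, -0.05 and 0.02, in each case with a sign opposite to the set used, and all were dimmer. For Mir409 the set used read 5.59, 5.81 and 5.78 in Ahr-KO and 6.31, 5.34 and 6.03 in wild type, a difference of -0.17 ± 0.22 (SE). Which strand each set reads is not given in the sources used here.

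The 9 measured markers of hippocampal neurons averaged 8.88 log2 or more, with Prox1 of dentate granule cells at 9.78 and Zbtb20 at 10.66. These levels cannot check the tissue label, since a brighter probe set is not read here as more RNA. Of these 9 markers 1, Prox1, was higher with an unadjusted p under 0.05 (11.1%, against 3.53% of all genes), with a difference of 0.28 ± 0.10 (SE; limma, adjusted p = 0.797). The widest difference in the list had the other sign, in Wfs1 of CA1 neurons (-0.37 ± 0.19, adjusted p = 0.817). Markers of astrocytes (4 of 4 measured), oligodendrocytes (3 of 4), microglia (3 of 3), endothelium (3 of 3) and neighbouring brain regions (4 of 5) held 0 genes with an unadjusted p under 0.05 (limma). Over all genes 2.65% were lower and 3.53% higher at that level. Drd2 and Rorb, 2 of 4 neighbouring-region markers (50%), were higher without overlap, against 6.18% of all genes. So was Slc1a3, 1 of 4 astrocyte markers (25%). Among the neighbouring-region markers Rorb averaged 9.79, Tcf7l2 7.35, Drd2 6.47 and Drd1 6.13. On Ahr-KO array 1 the mean deviation of the oligodendrocyte markers was -0.32 log2, and their part in the result was not tested.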

How the data were processed

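The authors deposited a log2 signal for each probe set. RMA and Affymetrix Expression Console are named in the submitters' processing notes, without versions. RMA quantile-normalizes arrays together, which removes overall shifts and compresses differences. Probe sets with 1 annotated symbol were kept (23521 of 41345 rows), symbols were updated through RefSeq (GRCm38.p6), and the brightest probe set per gene was used, giving 22180 genes. The genotype contrast was fitted over 6 arrays in limma 3.58.1 (R 4.3.3) without covariates (two-sided, Benjamini-Hochberg over all genes). The code was checked on simulated data. An exact permutation test of 3 against 3 arrays cannot go below 0.1. The number of arrays limits the precision. No scan dates or detection calls were used. The members and lists were chosen with earlier results of these data known. Named are Mir154 and its neighbours, the 5 largest differences per direction, the 5 brightest probe sets, the 3 widest spreads, locus genes, and the 3 lowest p-values of other lists. Others named here (second probe sets, shared seeds, Drosha, Dicer1, Ago4, hairpin relatives, genes in the array pattern) were chosen after their values were seen. Alternatives changed the variance model, weights, scaling, filter, probe sets and arrays. Figures used matplotlib 3.10.9.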

Additional observations from a re-analysis of the deposited data

How the results depend on the processing

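The median difference of the 32 microRNA genes stayed below 0 under the 14 settings tried, and 17 of the 32 genes kept their sign in all of those that included them, 16 lower and 1 higher. Leaving out 1 array gave medians from -0.26 to -0.04, 3 to 12 genes lower and 0 to 2 higher with an unadjusted p under 0.05, 5 to 15 without overlap, and a Mir154 difference from -0.80 to -0.60. With Ahr-KO array 1 and wild-type array 2 both left out the median was -0.33, with 15 genes lower, 0 higher and 21 without overlap (34.6% of all genes). That pair was picked by its choroid plexus levels in these same data. Median centring gave 7 genes without overlap, array weights 0 higher, and the filter on dim genes 2 lower and 2 without overlap among 13 listed genes left, with Mir154 removed. An intensity trend gave 2 genes past the threshold (Mid1 and Prelp), and in every other alternative 0 passed, with 1371 at an unadjusted p under 0.05 in the limma fit. With the mouse number as a replicate block 5 listed genes were lower and Mir154 differed by -0.70. The labels name different mice. Once each gene's genotype mean was subtracted, same-numbered arrays correlated at -0.15, -0.22 and 0.05 over all genes. With the block 0 genes passed the threshold, as without it, while the listed genes lower with an unadjusted p under 0.05 went from 4 to 5. In alternatives added after seeing the data (every probe set on its own, all microRNA genes of the locus, shared probe sets added) the medians were -0.099, -0.14 and -0.12. Signs turned for Dio3os (-2.5e-05 with median centring, -0.0051 with quantile normalization, -0.14 to 0.14 leaving out 1 array), Mef2c (-0.48 to 0.055), Wdr25 (-0.014 to 0.10) and Begain (-0.025 to 0.23), each leaving out 1 array, and Pum2 (0.010 without Ahr-KO array 1 and wild-type array 2). Among the microRNA genes named, Mir493, Mir494, Mir299a, Mir540, Mir541, Mir667, Mir409, Mir544, Mir495, Mir376a, Mir376c, Mir453 and Mir496a also turned sign under at least 1 setting. The cause was not tested.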
